A study of Mus musculus with 15 samples.

Results

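The genes described here are 8 genes of fasting fat use, Bdh1, Cpt1a, Ppara, Fgf21, Angptl4, Pdk4, Cyp4a10 and Cyp4a14. They were found by symbol among the 23589 loci with a gene name in a table of 33603 loci, and each of the 8 had 1 locus. RNA-Seq libraries were available for colon, liver, hippocampus, hypothalamus and epididymal fat from C57BL/6 males on 3 feeding regimens. The AL mice ate ad libitum and were sacrificed at 5 months of age. The DR mice were kept on 40% dietary restriction from 4 months of age for 1 month, so that their food came to 60% of AL intake, and were also sacrificed at 5 months. The DR-AL mice had the same month of restriction, were then returned to ad libitum feeding for 2 months and were sacrificed at 7 months, so the return to AL feeding and the older age cannot be told apart in this group. Each tissue and diet was 1 library made from RNA pooled over 5 mice. There were therefore no replicates within a tissue, and the errors given for a difference between 2 libraries cover counting only. The hour of the day and the time since the last meal at sacrifice are not given in the sources used here.

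When food is withheld, fatty acids leave adipose tissue and are oxidised in liver, and part of the acetyl-CoA formed is turned into ketone bodies for other tissues. The nuclear receptor PPAR alpha, the product of Ppara, binds fatty acids together with its partner RXR and induces much of this programme in liver. Cpt1a encodes the liver form of carnitine palmitoyltransferase at the outer mitochondrial membrane, the controlled step of long-chain fatty acid entry, and Bdh1 the mitochondrial enzyme that interconverts acetoacetate and beta-hydroxybutyrate. Cyp4a10 and Cyp4a14 are microsomal fatty acid omega-hydroxylases and classical PPAR alpha targets in mouse liver. Fgf21 is a hormone secreted by liver in fasting, Angptl4 is a secreted inhibitor of lipoprotein lipase, and Pdk4 is a kinase that switches off pyruvate dehydrogenase and so spares glucose.

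The genes lie on 7 chromosomes of the GRCm38 assembly, with Cyp4a10 and Cyp4a14 as neighbours on chromosome 4. The gene bodies are at chr16:31422280-31458901 for Bdh1, chr19:3322334-3385733 for Cpt1a and chr15:85734983-85802819 for Ppara, all on the plus strand. Fgf21 lies at chr7:45613886-45615490, Angptl4 at chr17:33773750-33781830 and Pdk4 at chr6:5483351-5496309, all on the minus strand. Cyp4a10 lies at chr4:115518264-115533649 on the plus strand and Cyp4a14 at chr4:115486200-115496142 on the minus strand. The locus of Cyp4a14 in the table covered 152 kb, far more than the gene, and the related Cyp4a31, Cyp4a12a, Cyp4a12b and Cyp4a32 have loci of their own. Reads of near-identical Cyp4a copies could have been split among these loci, so the levels of the 2 Cyp4a genes are uncertain to that extent.

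RefSeq promoter windows of GRCm38.p6, each from 250 bases before to 50 bases after a start site, were at hand for Bdh1, Cpt1a, Ppara, Fgf21 and Pdk4. Those of Fgf21, Pdk4 and Cpt1a are shown because these genes, together with the Cyp4a pair, differed most between the liver libraries. They are printed from 5′ to 3′ along the gene, for Fgf21 from chr7:45615441-45615740 (minus strand), for Pdk4 from chr6:5496229-5496528 (minus strand) and for Cpt1a from chr19:3323051-3323350 (plus strand), and capitals mark matches to the motifs searched on both strands.
Fgf21: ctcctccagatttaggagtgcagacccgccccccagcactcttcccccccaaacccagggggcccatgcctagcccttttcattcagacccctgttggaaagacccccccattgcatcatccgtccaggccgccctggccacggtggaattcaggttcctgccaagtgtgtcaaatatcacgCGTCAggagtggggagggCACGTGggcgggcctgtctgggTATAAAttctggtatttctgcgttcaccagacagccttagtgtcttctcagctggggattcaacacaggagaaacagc
Pdk4: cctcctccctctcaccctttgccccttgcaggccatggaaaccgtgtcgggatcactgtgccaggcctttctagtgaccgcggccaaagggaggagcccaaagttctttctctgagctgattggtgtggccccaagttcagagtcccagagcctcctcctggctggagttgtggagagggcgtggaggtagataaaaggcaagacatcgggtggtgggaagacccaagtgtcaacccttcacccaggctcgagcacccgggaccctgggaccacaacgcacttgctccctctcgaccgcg
Cpt1a: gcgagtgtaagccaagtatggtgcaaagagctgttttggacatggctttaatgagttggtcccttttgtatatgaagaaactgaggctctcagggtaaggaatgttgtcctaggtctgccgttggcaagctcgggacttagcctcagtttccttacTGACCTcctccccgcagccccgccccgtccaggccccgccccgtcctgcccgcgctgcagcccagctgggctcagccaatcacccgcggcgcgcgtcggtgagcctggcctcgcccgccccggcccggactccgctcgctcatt
The Fgf21 window held the E-box CACGTG at position -50 from the start site, TATAAA at -28 and TGACG, a core of the cyclic AMP response element, on the reverse strand at -68. The Cpt1a window held the nuclear receptor hexamer AGGTCA on the reverse strand at -94. The Pdk4 window held none of the letters searched, which were these and GTAAACA, a site bound by FoxO factors. The same searches matched 7.15% of all 32851 windows for CACGTG, 13.6% for TATAAA, 20.8% for TGACG, 16.3% for AGGTCA and 3.65% for GTAAACA. AGGTCANAGGTCA, the direct repeat with a 1-base spacer to which PPAR alpha and RXR bind and which contains the hexamer, was in 0 of the 6 windows of these genes and in 0.0396% of all windows. These are descriptions of letters in short windows and say nothing about binding elsewhere.

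The libraries held 21767088 to 40500130 counts on named loci, with a median of 26554699. Levels are given as CPM, counts scaled so that the named loci of each library add up to 1000000, so 3 counts, the limit that a count of 0 allows, correspond to 0.0741 to 0.138 CPM. Several libraries held RNA of other organs. In the AL fat library, 9 liver markers stood at a median of 12.1% of their level in AL liver, against 0.183% in DR fat and 0.0293% in DR-AL fat, and the tenth liver marker, Alb, was listed at 0 in all 15 libraries. Summed testis germ cell markers in fat were 3.24 CPM under AL, 494 under DR and 2528 under DR-AL. Summed epididymis markers were 910.4, 3266 and 5103 CPM. The highest single epididymis marker made up most of each sum, at 846, 2802 and 4584 CPM. The median of the 8 epididymis markers was 0.553, 36.4 and 10.2 CPM, highest in DR. Summed colon epithelium markers in hypothalamus were 22.3 CPM in AL against 3.24 in DR and 2.66 in DR-AL. Markers of the labelled tissue were found in all libraries, with summed levels of 53416 to 60433 CPM in liver, 17532 to 23665 in fat, 31625 to 32349 in colon, 844 to 1073 in hypothalamus and 1910.4 to 2111 in hippocampus.

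**Figure D1:**
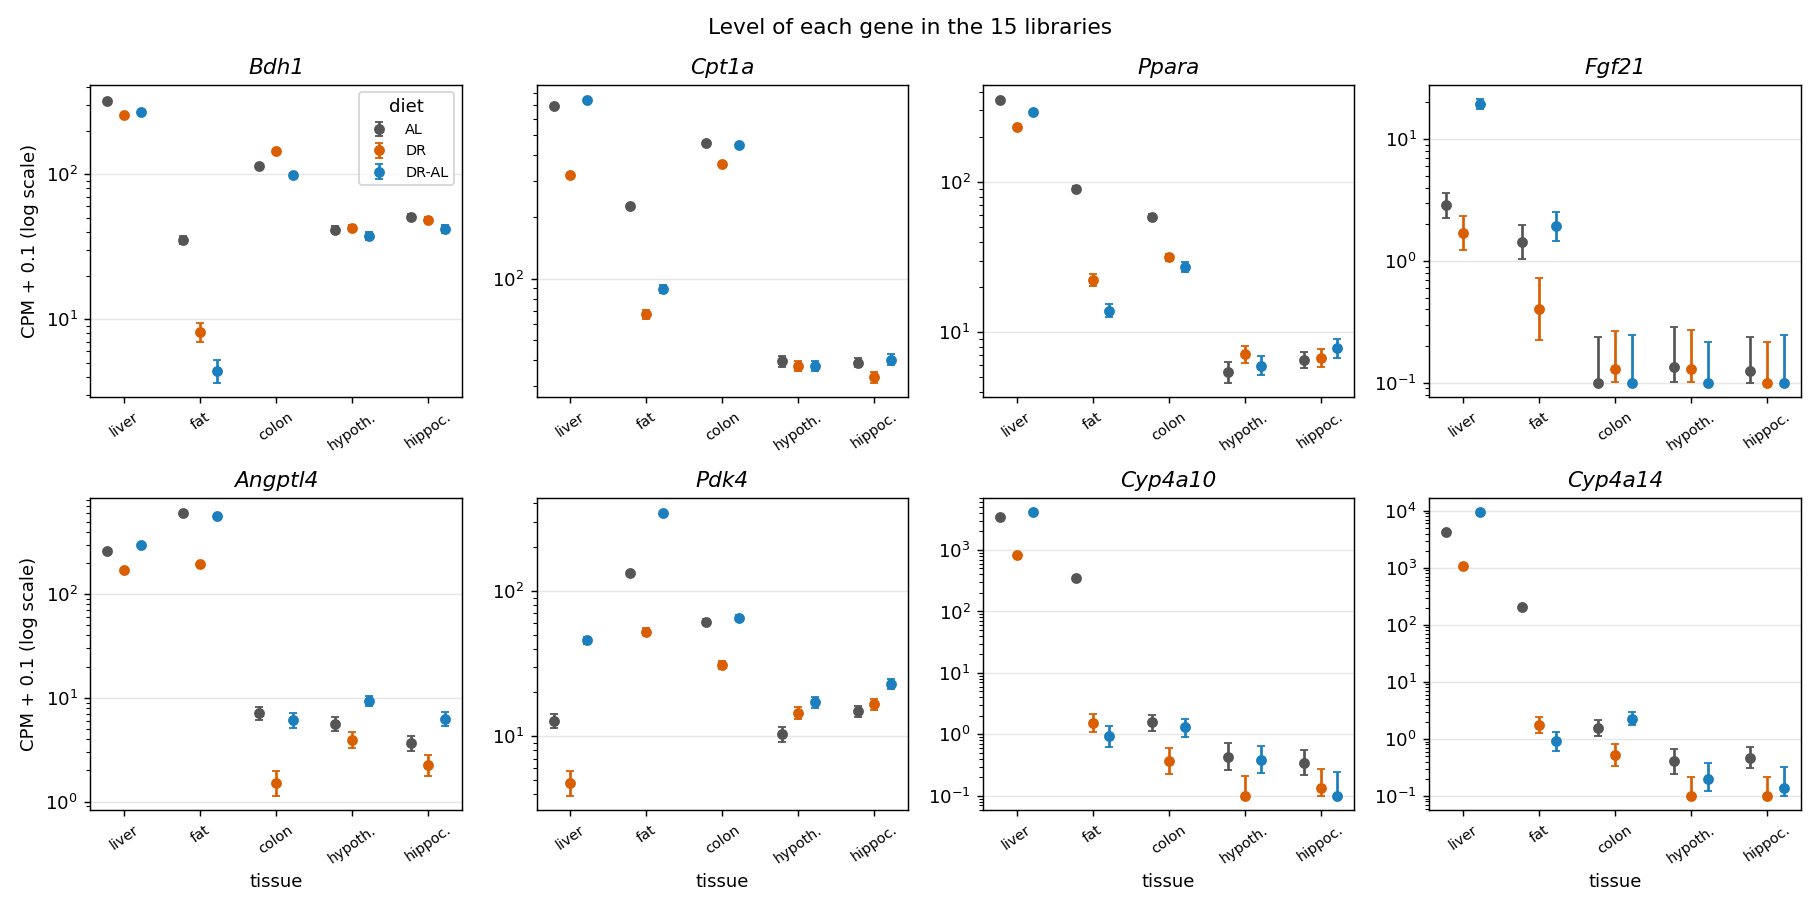
Level of the 8 genes in the 15 libraries, 1 panel per gene. The x axis gives the tissue and the y axis CPM plus 0.1 on a log scale, and bars are exact 95% Poisson intervals, which cover counting error only. In liver the DR library is the lowest of the 3 for all 8 genes.

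To ask how restriction and the return to ad libitum feeding bore on these genes in the organ of ketogenesis, the 3 liver libraries were compared first. In AL liver, where levels between genes were compared by the deposited length-scaled FPKM, Cyp4a10 stood at 5228 and Cyp4a14 at 3306 FPKM. Angptl4 at 307, Cpt1a at 301, Bdh1 at 189 and Ppara at 95.5 FPKM came next, and Pdk4 at 8.50 and Fgf21 at 6.50 FPKM were lowest. With 1 library per diet, no replicate spread is at hand to place neighbours such as Angptl4 and Cpt1a in order.

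The omega-hydroxylases showed the largest liver levels and the largest fall with DR. Cyp4a14 was 4295 CPM in liver under AL, 1077 under DR and 9439.6 under DR-AL. Cyp4a10 was 3391, 815 and 4098 CPM. The DR library was about 4 times lower than AL for both, by -2.00 (95% counting interval -2.02 to -1.98) for Cyp4a14 and -2.06 (-2.08 to -2.03) for Cyp4a10 on the log2 scale. The DR-AL library stood above DR by 3.13 and 2.33. Compared with AL, DR-AL liver had 2.20-fold more Cyp4a14 and a Cyp4a10 level that differed by 1.21-fold, where a call needed a difference of at least 25%.

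Cpt1a, the gate to mitochondrial oxidation, was 696 CPM in liver under AL, 321 under DR and 739.6 under DR-AL. DR was thus 2.17-fold lower than AL and DR-AL 2.31-fold higher than DR, while AL and DR-AL were within 1.06-fold. Ppara itself moved less, with 349, 231 and 292 CPM, a 1.51-fold lower level in DR. Bdh1 moved least, with 322, 255 and 267 CPM. Its difference between DR and AL, 1.26-fold, lay just past the limit of 25% and was not called when the 10 most abundant genes were left out of the totals, and DR-AL liver did not differ from DR by a call, at 0.07 on the log2 scale.

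Fgf21 and Pdk4 had the lowest liver levels of the 8 genes and the largest fold differences between DR-AL and DR. Fgf21 was 2.79 CPM under AL (69 counts), 1.61 under DR (35 counts) and 19.4 under DR-AL (474 counts). The DR-AL library was 11.9-fold above DR and 6.89-fold above AL, whereas the 95% counting interval of the DR difference from AL, -1.43 to -0.19 on the log2 scale, was wide. Pdk4 followed the same order, with 12.7 CPM under AL, 4.64 under DR and 45.5 under DR-AL, so that DR-AL was 9.77-fold above DR and 3.58-fold above AL. Angptl4 was 259, 169 and 294 CPM, 1.53-fold lower in DR than in AL and 1.74-fold higher in DR-AL than in DR.

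**Figure D2:**
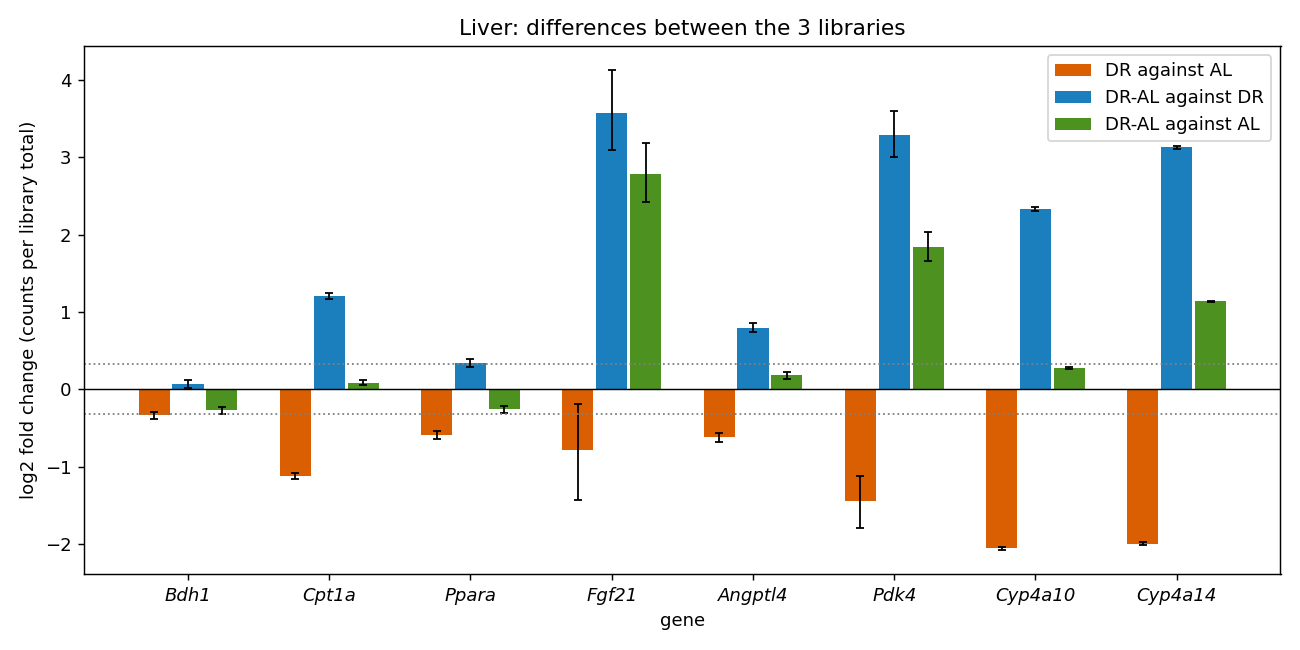
Differences between the 3 liver libraries for each gene. The x axis gives the gene and the y axis the log2 fold change of counts per library total, bars are coloured by comparison, whiskers are 95% counting intervals and dotted lines mark a difference of 25%. DR lies below AL for 8 of 8 genes, and DR-AL lies 25% or more above DR for 7 of 8, with Bdh1 at 0.07.

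By the Z test of the study's methods (adjusted p under 0.05 over all genes tested, and the higher library at least 25% above the lower), which compares the 2 libraries and not the diets, 8 of 8 genes were lower in DR than in AL liver. Over the 17408 genes tested, 9.92% were called lower and 18.0% higher. The balance of all genes depended on the scaling. Of those called, 64.5% were higher with library totals, 50.6% with DESeq size factors and 50.1% with TMM factors. DR-AL against DR gave 7 of 8 genes higher and 0 lower, against 16.9% higher and 24.0% lower over all genes. Of all genes called there, 41.3%, 51.1% and 51.0% were higher in the same order of scalings. DR-AL against AL gave 3 of 8 higher (Fgf21, Pdk4 and Cyp4a14) and 0 lower, against 15% and 15.8%. The median log2 fold change of the 8 genes was -0.95 for DR against AL, where that of all genes tested was 0.10, and 1.77 for DR-AL against DR, where it was -0.11. The 2 comparisons share the DR library, so a low value there enters both. An exact test assumed a coefficient of variation of 0.3 between libraries, each a pool of 5 mice. It called 0, 4 and 1 of the 8 genes in DR against AL, DR-AL against DR and DR-AL against AL. Of all 17408 genes it called 83, 181 and 83.

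The other genes of fat oxidation were described by lists. Beside each list count in liver stand the shares of all genes. They were 18.0% higher and 9.92% lower in DR than in AL, and 16.9% and 24.0% in DR-AL than in DR. Of 22 loci of the carnitine shuttle and mitochondrial beta-oxidation, 14 were lower and 0 higher in DR than in AL liver, with a median of -0.55, and 13 were higher and 1 lower in DR-AL than in DR. Slc22a5, the carnitine transporter, whose locus is merged with Slc22a21, fell from 70.4 CPM in AL to 22.7 in DR and stood at 115 in DR-AL. Acsl1, which activates long-chain fatty acids, fell from 2110.2 to 801 CPM with DR. Crat, carnitine acetyltransferase, rose from 47.5 CPM in DR to 139 in DR-AL, while Acaa2, the last enzyme of the cycle, was 1003 CPM in DR and 761 in DR-AL.

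Of 15 loci of peroxisomal beta-oxidation and the other Cyp4a enzymes, 12 were lower and 1 higher in DR than in AL liver, with a median of -1.11. Cyp4a12b fell from 167 to 10.3 CPM and Cyp4a31 from 77.5 to 7.07 CPM, and in DR-AL they stood at 68.7 and 56.1 CPM. Abcd2, a peroxisomal fatty acyl-CoA transporter, was the 1 that rose, from 19.7 to 48.2 CPM. In DR-AL against DR, 12 of these 15 were higher and 3 lower, among the latter Abcd2 at 28.7 CPM and Acaa1a, merged with Xylb, at 308 CPM against 447 in DR.

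Of 12 loci of other PPAR alpha targets, 10 were lower and 0 higher in DR than in AL liver and 10 were higher and 0 lower in DR-AL than in DR, with medians of -0.82 and 1.55. Vnn1, a pantetheinase, was 162 CPM under AL, 31.0 under DR and 163 under DR-AL. G0s2, an inhibitor of adipose triglyceride lipase, was 124, 25.1 and 409 CPM.

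The ketone body list was mixed. Of its 8 loci, 4 were lower and 3 higher in DR than in AL liver. Slc16a1, a monocarboxylate transporter that carries ketone bodies, was 60.9 CPM under AL, 40.0 under DR and 124 under DR-AL. Oxct1, which uses ketone bodies outside the liver, was low in AL and DR at 3.84 and 6.39 CPM, and Bdh2, a cytosolic dehydrogenase, went the other way from Slc16a1, with 11.4, 18.6 and 5.63 CPM. In DR-AL against DR, 4 of the 8 were higher and 2 lower, Slc16a7 being 161 CPM in DR and 126 in DR-AL.

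Among 12 PPAR alpha partners and coregulators, 2 were higher and 2 lower in DR than in AL liver. In DR-AL against DR, 2 were higher and 6 lower. Over all genes, the shares higher and lower were 18.0% and 9.92%, and 16.9% and 24.0%. A departure of the list from all genes was not tested. Lpin1, a phosphatidate phosphatase and coactivator, rose from 136 CPM in AL to 483 in DR and was 80.3 in DR-AL. Ppargc1a, the coactivator PGC-1 alpha, was 11.8 CPM in AL and 19.8 in DR. Pparg fell from 12.4 to 8.22 CPM and Nrip1, a corepressor, from 11.2 to 8.82 CPM with DR, and they stood at 10.5 and 14.6 CPM in DR-AL. Ep300, a histone acetyltransferase, was 29.1 CPM in DR and 19.8 in DR-AL.

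The partners of Pdk4, Fgf21 and Angptl4 were described in the same way. Their calls were not tested against those of all genes, of which 18.0% were higher and 9.92% lower in DR than in AL. In DR-AL against DR these shares were 16.9% and 24.0%. Of 10 loci of the pyruvate dehydrogenase complex and its regulators, 2 were higher and 1 lower in DR than in AL liver, and 2 higher and 3 lower in DR-AL than in DR. Dlat, the E2 subunit, was 42.5 and 67.5 CPM and Pdp2, an activating phosphatase, 49.2 and 31.0 CPM in AL and DR. Pdk1, another kinase of the complex, was 93.9 CPM under AL, 124 under DR and 65.1 under DR-AL, the reverse of the order seen for Pdk4. Pdk2 was 126 CPM in DR and 77.8 in DR-AL, and Dld, the E3 subunit, was 116 and 268 CPM. Of the 5 loci of FGF21 receptors and their co-receptor Klb, 2 were higher and 1 lower in DR, and 0 higher and 2 lower in DR-AL than in DR. Fgfr3 was 16.9, 27.3 and 9.06 CPM and Fgfr2 27.2, 36.0 and 26.2 CPM in AL, DR and DR-AL, and Fgfr1 was 9.70 CPM in AL and 7.30 in DR. Of 5 loci around lipoprotein lipase, 3 were higher and 0 lower in DR, and 1 higher and 3 lower in DR-AL than in DR. Gpihbp1, which anchors the lipase, was 11.3 CPM in AL and 16.6 in DR. Lpl itself was 29.9 CPM in DR and 43.6 in DR-AL, and Lmf1, a maturation factor, 44.8 and 26.1 CPM.

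**Figure D3:**
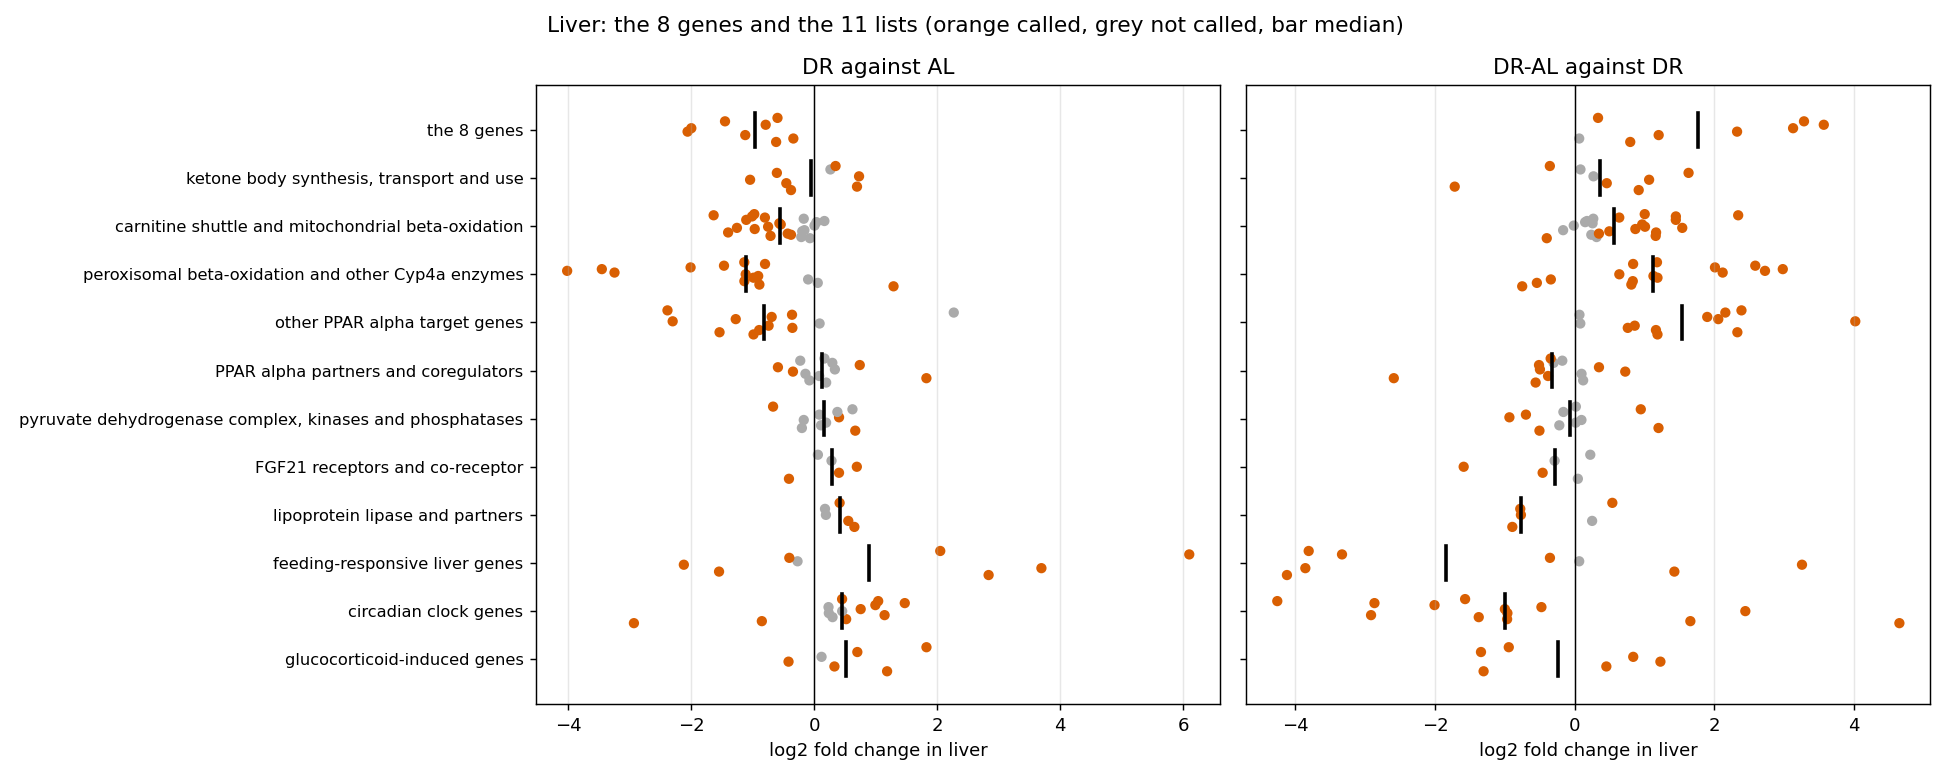
Liver log2 fold changes of the 8 genes and of the loci of 11 lists, 1 row per list, for DR against AL (left) and DR-AL against DR (right) on the x axes. Each point is a locus, orange where called and grey where not, and black bars are medians. The lists of mitochondrial oxidation, peroxisomal oxidation and other PPAR alpha targets have medians of -0.55, -1.11 and -0.82 in DR against AL.

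Genes that follow the last meal, the clock and glucocorticoids also differed between the liver libraries. Of 8 feeding-responsive loci, 4 were higher and 3 lower in DR than in AL, and 2 higher and 5 lower in DR-AL than in DR. Fasn, fatty acid synthase, which is induced by feeding, was 79.0 CPM in AL, 564 in DR and 32.4 CPM in DR-AL liver. Igfbp1 and G6pc, which are induced by fasting, were 112 and 399.6 CPM in AL, 25.8 and 137 in DR and 247 and 369 in DR-AL. Of 13 clock loci, 7 were higher and 2 lower in DR than in AL and 3 higher and 10 lower in DR-AL than in DR. Dbp was 57.3, 127 and 16.8 CPM, Per2 23.7 CPM in AL and 65.9 in DR, Clock 30.6, 17.0 and 53.8 CPM, and Per3 57.4 CPM in DR and 2.98 in DR-AL. Of 6 glucocorticoid-induced loci, 4 were higher and 1 lower in DR than in AL, and 3 were higher and 3 lower in DR-AL than in DR. Fkbp5 was 62.1, 141 and 57.2 CPM in AL, DR and DR-AL, Zbtb16 18.6 CPM in AL and 66.0 in DR, and Tsc22d3 233 CPM in DR and 91.9 in DR-AL, whereas Mt2 was 49.5, 37.1 and 87.2 CPM and Sgk1 18.4 CPM in DR and 32.9 in DR-AL. The part of the last meal, the hour of sacrifice and glucocorticoids in the levels of the 8 genes was not tested.

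In epididymal fat, all 8 genes were lower in DR than in AL, and each is given beside its level in AL liver, because the AL fat library held liver RNA. Summed smooth muscle markers in fat were 860, 2417 and 609 CPM and summed blood markers 355, 172 and 212 CPM in AL, DR and DR-AL, and their part in the results was not tested. In whole tissue, fewer cells of a type and less RNA per cell cannot be told apart. Cyp4a10 was 347 CPM in AL fat, 1.45 in DR and 0.841 in DR-AL, and Cyp4a14 was 209, 1.66 and 0.804 CPM. Bdh1 was 34.9, 8.02 and 4.28 CPM. The AL values of these 3 were 10.2%, 4.86% and 10.8% of those in AL liver, where 8 liver markers of the same library spanned 7.98% to 21.0%, so that Cyp4a10 and Bdh1 lay within that span and Cyp4a14 below it. The ninth marker, Cyp2e1, was at 55.2% in AL fat and still at 33.3% in DR and 26.1% in DR-AL fat. The part of liver RNA in their fall with DR was not tested.

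Angptl4 and Pdk4 had more CPM in AL fat than in AL liver, 234% and 1044% of the liver level. In FPKM, Angptl4 was lower in AL fat than in AL liver, 233 against 307, and Pdk4 was higher, 31.9 against 8.50. Angptl4 was 606 CPM in fat under AL, 194 under DR and 563 under DR-AL. Pdk4 was 133, 52.2 and 341 CPM. Both were lowest in DR, by -1.64 and -1.34 on the log2 scale against AL, and higher in DR-AL than in DR by 1.54 and 2.71. Per 1000 counts of the summed adipocyte markers, which were 23665 CPM under AL, 22679 under DR and 17532 under DR-AL, Angptl4 was 25.6, 8.55 and 32.1 and Pdk4 5.60, 2.30 and 19.5. In the deposited FPKM, whose scaling between libraries is not stated, Pdk4 in DR-AL fat stood below AL, at 27.4 against 31.9 FPKM, and the DR-AL against DR difference of Cpt1a, 0.41 on the log2 scale of counts, was -0.46. In the same unit Angptl4 was 69.8 FPKM in DR-AL against 233 in AL fat, and Fgf21 0.423 against 0.962.

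Cpt1a was 225 CPM in AL fat, 67.2 in DR and 89.0 in DR-AL. Its AL level was 32.3% of that in AL liver. Ppara was 90.1, 22.2 and 13.8 CPM, with an AL level 25.8% of AL liver. Fgf21 was 1.33 CPM under AL (35 counts), 0.307 under DR (7 counts) and 1.83 under DR-AL (50 counts). The AL level of Fgf21 was 47.9% of that in AL liver, which rested on 69 counts. With 20382 genes tested in fat, 8 of the 8 were called lower in DR than in AL, where 10.4% of all genes were lower and 35.2% higher. DR-AL against AL gave 1 higher and 5 lower (all genes 46.0% and 11.9%), and DR-AL against DR gave 4 higher and 3 lower (all genes 38.3% and 13.3%). Of the other fat oxidation lists, other PPAR alpha targets had 0 of 12 higher and 8 lower in DR than in AL fat and peroxisomal loci 1 of 15 higher and 11 lower, while mitochondrial loci had 4 of 22 higher and 3 lower and ketone body loci 0 of 8 and 1. The lowest log2 fold changes were -6.02 among other PPAR alpha targets and -7.67 among peroxisomal loci. The AL fat library held liver RNA, and its part in the fat calls of the 8 genes and of these lists was not tested.

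**Figure D4:**
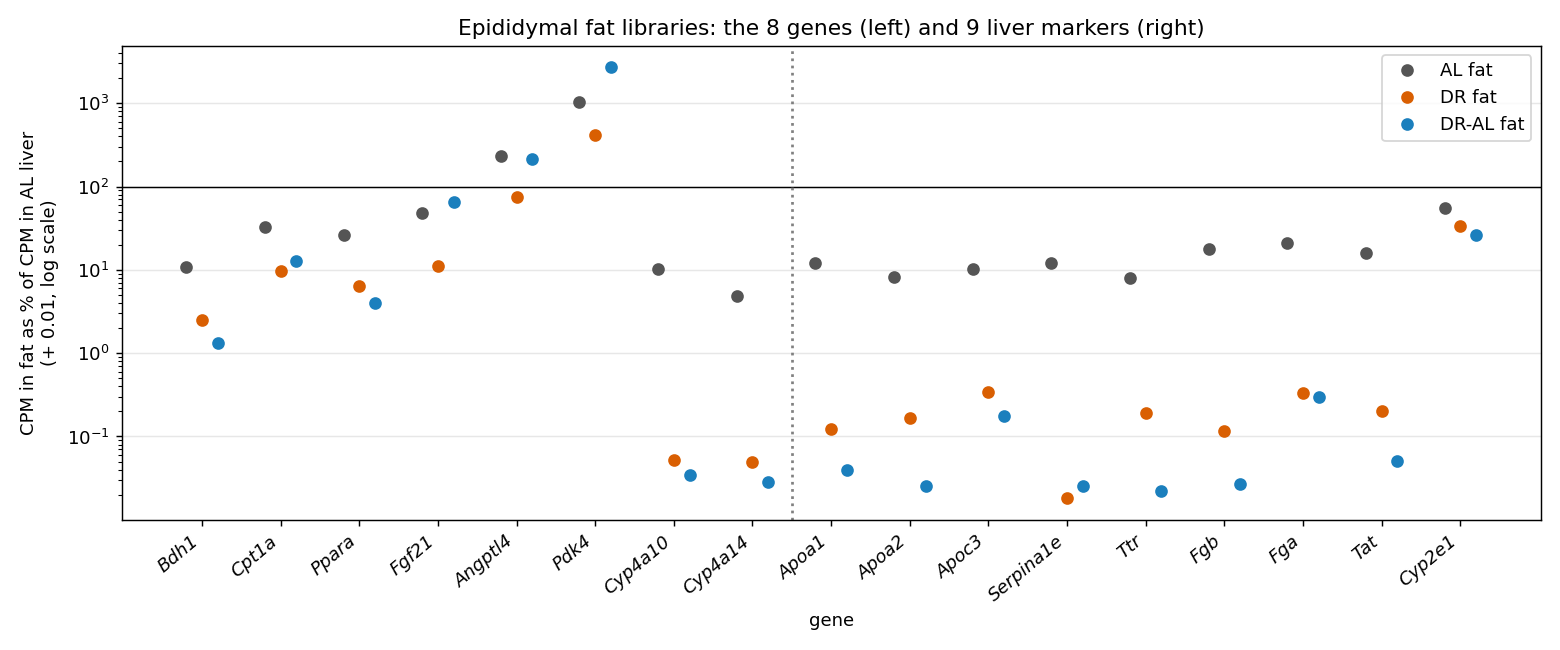
CPM in the 3 epididymal fat libraries as a percentage of CPM in AL liver (y axis, plus 0.01, log scale), for the 8 genes on the left of the x axis and 9 liver markers on the right. In AL fat Bdh1, Cyp4a10 and Cyp4a14 lie at 10.8%, 10.2% and 4.86%, while Angptl4 and Pdk4 lie above 100% (the black line).

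In colon, Angptl4, Pdk4 and Cpt1a again had their lowest level in DR. Angptl4 was 6.97 CPM under AL, 1.41 under DR and 5.95 under DR-AL, a 4.91-fold fall and a 4.19-fold return. Pdk4 was 60.8, 31.0 and 64.7 CPM, a 1.96-fold fall and a 2.09-fold return. Cpt1a was 459, 364 and 449 CPM, 1.26-fold lower in DR than in AL. The smallest Cpt1a level among the colon libraries thus exceeded that in DR liver on the CPM scale, 364 against 321. In FPKM the order was the reverse, 87.8 in DR colon against 129 in DR liver.

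Ppara fell in colon and stayed low, with 58.4 CPM under AL, 31.3 under DR and 27.1 under DR-AL, and was the 1 gene called lower in DR-AL than in AL. Bdh1 was the 1 gene higher in DR than in AL colon, at 144 against 114 CPM, and was 97.9 CPM in DR-AL. Cyp4a10 and Cyp4a14 rested on few counts, 39, 9 and 30 counts for Cyp4a10 and 39, 14 and 54 for Cyp4a14 in AL, DR and DR-AL. Both were 1.47 CPM in AL colon, against 3391 and 4295 CPM in AL liver. The 10 liver markers had a median of 2.45, 1.93 and 1.70 CPM in AL, DR and DR-AL colon, against 4534 CPM in AL liver. The part of liver RNA in the colon calls of these genes was not tested. Fgf21 had 0, 1 and 0 counts and was at or under the counting limit. Of the 18242 genes tested in colon, 1 of the 8 was higher and 6 were lower in DR than in AL (all genes 9.04% and 10.6%), 0 higher and 1 lower in DR-AL than in AL (5.83% and 8.50%), and 4 higher and 1 lower in DR-AL than in DR (6.78% and 7.67%). The lists of other PPAR alpha targets and peroxisomal loci had 0 higher and 7 of 12 and 8 of 15 lower in DR than in AL colon, with medians of -0.84 and -0.52 where that of all genes was 0, and 6 of each were higher and 0 lower in DR-AL than in DR. Of the 22 mitochondrial loci, 3 were lower in DR and 9 higher in DR-AL than in DR.

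In both brain regions Angptl4 and Pdk4 were highest in DR-AL. Angptl4 was 5.46, 3.85 and 9.20 CPM in AL, DR and DR-AL hypothalamus, and 3.53, 2.15 and 6.16 CPM in hippocampus. Pdk4 was 10.2, 14.3 and 17.0 CPM in hypothalamus and 14.7, 16.5 and 22.9 CPM in hippocampus, so here its DR level lay above AL. The Pdk4 difference between DR and AL was called in hypothalamus, at 0.49 on the log2 scale, and was not called in hippocampus, at 0.16. The 7 hippocampus and telencephalon markers had a median of 1.18, 10.3 and 11.8 CPM in AL, DR and DR-AL hypothalamus. Their sum went the other way, at 230, 215 and 166 CPM. The part of RNA from neighbouring brain regions in the hypothalamus values was not tested.

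Cpt1a and Bdh1 had no call in brain. Cpt1a was 37.4 to 39.4 CPM over the 3 hypothalamus libraries and 33.0 to 40.2 CPM in hippocampus, and Bdh1 was 37.3 to 42.5 and 41.9 to 50.7 CPM. Ppara was 5.29, 7.02 and 5.90 CPM in hypothalamus, called higher in DR than in AL, and 6.47 to 7.71 CPM in hippocampus.

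Fgf21 had at most 1 count in each brain library. Cyp4a10 had 10, 0 and 9 counts in AL, DR and DR-AL hypothalamus and 10, 1 and 0 in hippocampus, and Cyp4a14 had 9, 0 and 3 and 15, 0 and 1 counts. For Cyp4a10 in hypothalamus, 0 counts in DR against 10 in AL gave a 95% counting interval that ended at -1.31 on the log2 scale. In AL colon, Cyp4a10 and Cyp4a14 were each 1.47 CPM, and in AL liver 3391 and 4295 CPM. The 10 liver markers had a median of 1.52, 0.580 and 0.881 CPM in AL, DR and DR-AL hypothalamus. In hippocampus their median was 0.346, 0.160 and 0.199 CPM. The part of colon or liver RNA in these few brain counts was not tested.

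In hypothalamus, 2 of the 8 were called higher and 3 lower in DR than in AL, against 4.33% and 2.72% of 19320 genes, 2 higher and 0 lower in DR-AL than in AL (6.06% and 9.02%), and 2 higher and 0 lower in DR-AL than in DR (2.82% and 6.80%). In hippocampus, 0 were higher and 3 lower in DR than in AL, against 1.36% and 2.67% of 18804 genes, 2 higher and 2 lower in DR-AL than in AL (3.99% and 2.16%), and 2 higher and 0 lower in DR-AL than in DR (3.63% and 1.26%). With a mean of at least 10 counts required, 5 of the 8 were tested in each region, and the DR against AL calls came to 3 in hypothalamus and 1 in hippocampus. The shares of all genes under this filter are not given. Of the 12 other PPAR alpha targets, 0 were higher and 3 lower in DR than in AL hypothalamus and 0 and 2 in hippocampus.

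**Figure D5:**
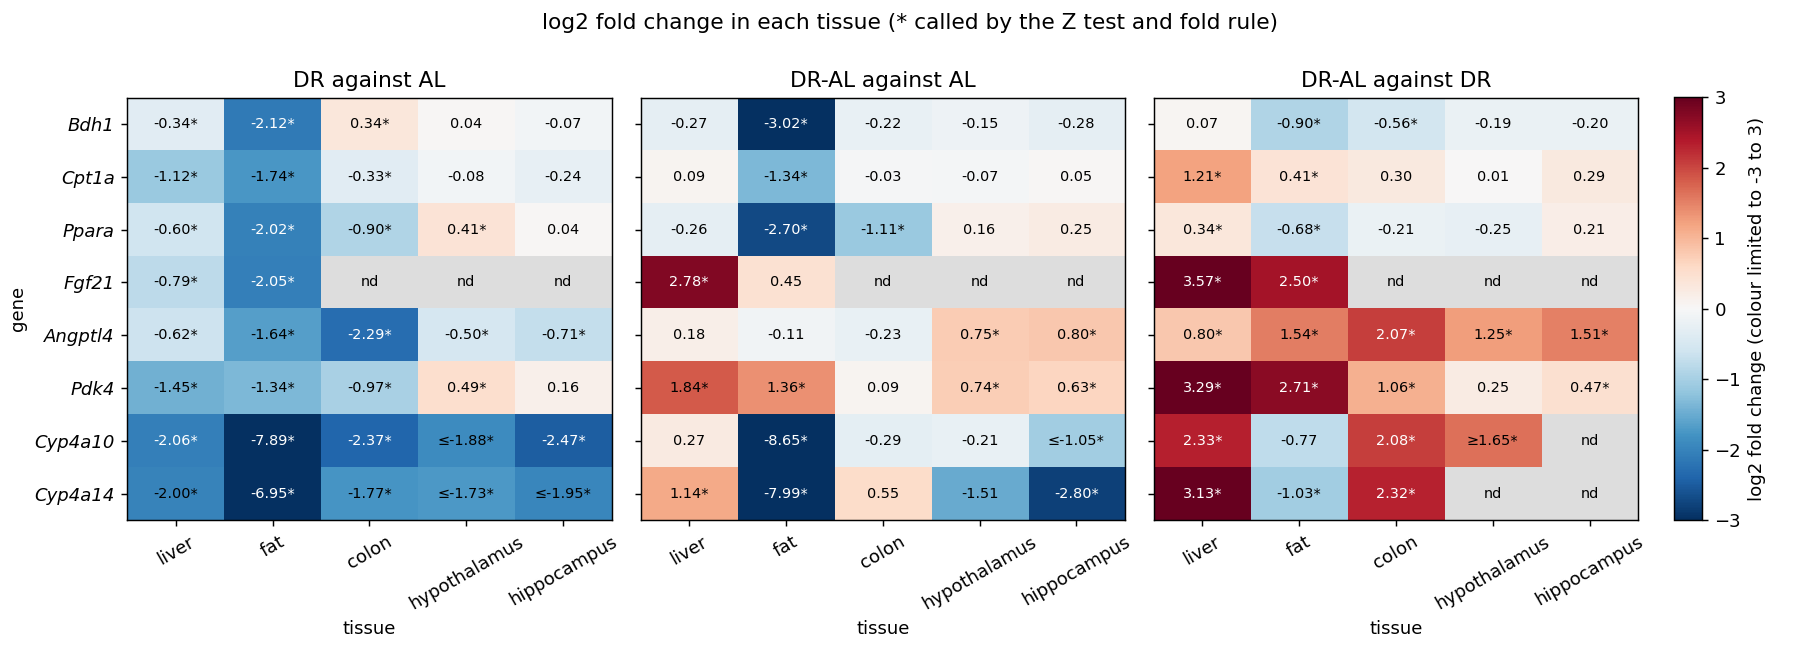
log2 fold change of each gene (rows) in each tissue (columns) for the 3 comparisons. Asterisks mark calls, nd marks pairs with at most 3 counts in both libraries, and ≤ or ≥ marks a value computed with 3 counts in place of the 0 counts of 1 library. Angptl4 is negative in 5 of 5 tissues for DR against AL and positive in 5 of 5 for DR-AL against DR.

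To describe the mean difference between diets over the tissues, all 15 libraries were fitted together with tissue as a term. Tissues thus stood in as repeats of a diet although they came from the same mice. Whether the difference was the same in each tissue was not tested by this fit. Angptl4 was lower in DR than in AL in 5 of 5 tissues and higher in DR-AL than in DR in 5 of 5. Its mean log2 fold changes were -1.22 and 1.40. Pdk4 was higher in DR-AL than in DR in 5 of 5 tissues, by 1.504 on average, although in hypothalamus the 0.25 was not called, and lower in DR than in AL in 3 of 5, by -0.56. Cpt1a had a mean of -0.78 for DR against AL and 0.44 for DR-AL against DR. It was called lower in DR in 3 tissues (liver, fat and colon) and higher in DR-AL than in DR in 2 (liver and fat), and in hypothalamus its differences were -0.08 and 0.01.

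None of the 8 passed edgeR's quasi-likelihood test with Benjamini-Hochberg adjustment over the 16381 genes tested. For Angptl4 the unadjusted p was 0.000577 in DR against AL (adjusted p = 0.9999) and 0.000189 in DR-AL against DR (adjusted p = 0.694). Under the other settings run, its log2 fold change ranged from -1.41 to -0.98 and from 1.11 to 1.53. At an unadjusted p under 0.05 there were 4 of the 8 in DR against AL, 1 in DR-AL against AL and 3 in DR-AL against DR. Among all 16381 genes there were 588, 751 and 616. Of all genes, 0.00610%, 0% and 0.00610% passed the adjusted threshold in these comparisons, and the 1 gene that did, Scd1, was named after its value was seen. DESeq2 on the same libraries called Angptl4 (adjusted p = 0.0109) and Cyp4a14 (adjusted p = 0.0263) in DR against AL and Angptl4 in DR-AL against DR (adjusted p = 0.000623), with 11, 6 and 9 calls over all genes. The Cyp4a14 value rests on the AL fat library, which held liver RNA, and on few brain counts, and in edgeR its log2 fold change moved from -4.73 to -1.90 without that library.

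Whether the liver departed from the other 4 tissues was tested by an interaction term in edgeR. The liver had 1 pooled library per diet, so the spread came from the other tissues alone and the liver libraries were assumed to vary like them. None of the 8 passed the adjusted threshold, where 0%, 0.0305% and 5.98% of all genes did in DR against AL, DR-AL against AL and DR-AL against DR. For Pdk4 the DR-AL against DR difference exceeded that of the other tissues by 2.31 on the log2 scale (adjusted p = 0.175 in edgeR's quasi-likelihood test). Without colon, hypothalamus or hippocampus its adjusted p in that test was 0.257 to 0.349. Without epididymal fat, which held RNA of other organs, the value was 2.80 (adjusted p = 0.00740) and that of Cpt1a 1.1002 (adjusted p = 0.00240, against 0.449 with fat), where 2935 of all 15967 genes passed. In that fit Cpt1a also passed in DR against AL at -1.002 (adjusted p = 0.0161), with 362 of all genes. Without only the AL fat library, Cpt1a passed in DR-AL against DR at 1.097 (adjusted p = 0.0157), with 1458 of all 16602 genes. DESeq2 on all 15 libraries called Pdk4 in that comparison (2.35, adjusted p = 0.0232), with 2224 of all genes, and 0 of the 8 in the others.

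Over the 12 libraries of liver, colon, hypothalamus and hippocampus, each centred on its tissue mean, the genes were described by their likeness to one another. The values share libraries and pools of mice. Pearson's r of log2 CPM was 0.945 between Cyp4a10 and Cyp4a14, 0.910 and 0.904 between Cpt1a and these 2. The Cyp4a genes had 0 to 15 counts in the 6 brain libraries, so these values rest on liver and colon. For Bdh1, r with the genes other than Fgf21 ranged from -0.653 (Angptl4) to 0.180 (Ppara).

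Among 11253 genes ranked, those most like Angptl4 included Plin4, a lipid droplet protein (r = 0.929), and Eltd1 (0.915). Those most like Cpt1a were Retsat (r = 0.980), Psap (0.978) and Ppp2r5c (0.975). Retsat, retinol saturase, was 1425, 382 and 1642 CPM in AL, DR and DR-AL liver. Cyp4a10 was most like the merged locus of Acot1 and Acot4, acyl-CoA thioesterases (r = 0.962), Nceh1 (0.961) and Zfand6 (0.957), and those most like Cyp4a14 included Sqstm1 (0.972) and Eif5 (0.971). No likeness is given for Fgf21, which had 0 or 1 count in all 9 libraries outside liver. Pdk4 was most like Rit1 (0.974), Fam108b (0.974) and Tmem62 (0.971). Ppara was most like Agmo, an alkylglycerol monooxygenase (0.965), Exd2 (0.928) and Cnnm1 (0.926). Bdh1 was most like Slitrk2 (0.922), Zfp87 (0.918) and A430033K04Rik (0.909). In AL, DR and DR-AL liver, Slitrk2 was 0.0809, 0 and 0 CPM and Cnnm1 0.445, 0.230 and 0.367 CPM. The likeness of Slitrk2 and Cnnm1 thus says little about liver.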

How the data were processed

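RNA-Seq libraries of 5 tissues under 3 diets, 15 in all and 1 per tissue and diet, were made from RNA pooled over 5 mice. The authors trimmed the reads, aligned them keeping the strand with Strand software, removed duplicates and quantified loci with DESeq, per the methods; the labels name DESeq2 and mm9, whereas the methods name mm10. The deposited table holds raw counts and FPKM per locus, and the scaling of the FPKM between libraries is not stated. Only 13.6% of 21161 loci matched by symbol overlapped their GRCm38.p6 position, so coordinates here come from GENCODE M21 and RefSeq on GRCm38.

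Loci without a gene name (0.258% to 1.39% of counts) were left out. Counts were scaled to the library total of named loci (CPM), and fold changes used a pseudocount of 0.5 counts at the mean total of the tissue, which understates changes of low genes. Within a tissue, genes with at least 1 count were tested 2 libraries at a time by a two-sided Z test on square roots of count shares with Poisson variance, with Benjamini-Hochberg adjustment. It measures counting error, so calls are counted and no p is given. Reads without molecular identifiers are not independent molecules, and intervals (Clopper-Pearson for ratios, exact Poisson for levels) cover counting error only. Tests across tissues used edgeR 4.0.16 (TMM, filterByExpr) and DESeq2 1.42.0 in R 4.3.3, other steps Python 3.11.15. Both tests were tested on simulated data. Alternatives were other scalings (DESeq size factors, TMM, totals without the 10 most abundant genes, FPKM with pseudocounts of 0.1 and 1), a mean of 10 counts, a fold change of 2, an exact test with assumed variation, and leaving out a tissue or the AL fat library.

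The 8 genes, the 11 lists and the marker lists were chosen with earlier results of these data known. In the text all 8 genes are named, and of each list up to 2 genes with the largest called rise and fall in liver with a mean of at least 100 counts. The 3 genes most alike were ranked by Pearson's r among genes with at least 10 CPM. Some genes that this rule names are not reported here. Angptl8 and Ciart had no locus, and of several loci for a symbol the one with most counts was used.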

Additional observations from a re-analysis of the deposited data

Results flagged for a closer look

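Some genes were called in opposite directions in different tissues under the same comparison. In each case the difference between tissues was not tested, and no cause was weighed. In DR against AL, Bdh1 was higher in colon (log2 fold change 0.34) and lower in liver (-0.34) and epididymal fat (-2.12). Ppara was higher in hypothalamus (0.41) and lower in liver (-0.60), epididymal fat (-2.02) and colon (-0.90). Pdk4 was higher in hypothalamus (0.49) and lower in liver (-1.45), epididymal fat (-1.34) and colon (-0.97).

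In DR-AL against DR, Ppara was higher in liver (0.34) and lower in epididymal fat (-0.68). Cyp4a14 was higher in liver (3.13) and colon (2.32) and lower in epididymal fat (-1.03). The Cyp4a14 values in colon and fat rested on few counts, 14 in DR and 54 in DR-AL colon and 38 and 22 in fat. In DR-AL against AL, Cyp4a14 was higher in liver (1.14) and lower in epididymal fat (-7.99) and hippocampus (-2.80), the last on 15 counts in AL and 1 in DR-AL. The AL fat library held liver RNA, and its part in the fat values was not tested.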

How the results depend on the processing

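Of the counts of calls that the comparisons rest on, 140 of the values under another setting equalled the main count or stayed within 1.5 times of it, 35 were lower and 8 higher. This tally took 0 calls against 0 calls as equal. It compared numbers of calls only, not which genes were called or in which direction, so it is no measure of stability of single genes. The calls depend most on what is assumed about variation between pools, which 1 pool per diet cannot give. With an assumed coefficient of variation of 0.3, 0 of the 8 genes were called in liver for DR against AL, 1 for DR-AL against AL and 4 for DR-AL against DR. Of all 17408 genes tested in liver, 83, 83 and 181 were called. The other counts of calls in this paragraph stand without the all-gene count of the same comparison and show only how calls move with the setting. In fat 4 were called for DR against AL and 2 for DR-AL against DR, and in colon, hypothalamus and hippocampus 0 in each comparison. With 0.1, hypothalamus gave 0, 1 and 1 calls and hippocampus 0, 0 and 1 in the order DR against AL, DR-AL against AL and DR-AL against DR. With a fold change of at least 2, DR against AL gave 4 calls in liver, 3 in colon and 2 in hypothalamus, DR-AL against AL 0 in hypothalamus and 2 in hippocampus, and DR-AL against DR 4 in fat and 1 in hippocampus. With a mean of at least 10 counts, DR against AL gave 3 calls in hypothalamus and 1 in hippocampus, DR-AL against AL 2 in hippocampus and DR-AL against DR 1 in hypothalamus, since fewer genes were tested. FPKM with a pseudocount of 0.1 gave 2 in colon and 4 in hypothalamus for DR-AL against AL. FPKM with a pseudocount of 1 gave 0 in hypothalamus and 0 in hippocampus for DR against AL, 2 in hippocampus for DR-AL against AL and 1 in hypothalamus for DR-AL against DR. In fat, FPKM turned Pdk4 in DR-AL against AL to -0.22 and -0.21 (pseudocounts of 0.1 and 1) and Fgf21 to -1.02 and -0.46 (0.45 from counts), and Cpt1a in DR-AL against DR to -0.46 and -0.39, while Angptl4 in DR-AL against AL went from -0.11 to -1.74 and -1.73. In hypothalamus FPKM with 0.1 turned Cyp4a10 in DR-AL against AL from -0.21 to 0.56. The median of all fat genes moved from 0.34 to -1.18 and -0.83 in DR-AL against AL and from 0.24 to -0.58 and -0.36 in DR-AL against DR, and the cause was not tested. In liver, Bdh1 lost its DR against AL call (-0.31) when the 10 most abundant genes were left out of the totals.

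In the fit over all tissues, DESeq2 called 2 of the 8 in DR against AL and 1 in DR-AL against DR, where edgeR called 0, and leaving out any 1 tissue left the edgeR counts at 0. In the liver interaction, DESeq2 called 1 in DR-AL against DR. Leaving out 1 tissue in turn gave 0 to 1 in DR against AL and 0 to 2 in DR-AL against DR, with 1 and 2 when epididymal fat was left out. Leaving out the AL fat library, chosen after seeing the data, gave 1 in DR-AL against DR. In this interaction the calls over all genes in DR-AL against DR, 980 in all libraries, ranged from 0 to 2935 without 1 tissue and were 2224 by DESeq2, and in DR against AL, 0 in all libraries, they ranged up to 362 and were 409 by DESeq2, and in DR-AL against AL, 5 in all libraries, up to 901 and were 870 by DESeq2. The cause was not tested. Over all genes, calls within a tissue ranged from 758 to 11802 over the 15 comparisons, from 245 to 6822 with a fold change of 2, from 8 to 8916 and from 1 to 4297 with assumed variation of 0.1 and 0.3, and from 3126 to 17295 and 640 to 14152 with FPKM and pseudocounts of 0.1 and 1. No paired analysis was possible because the labels number no replicates, other than the fits with tissue as a term, and without that term edgeR called 0 of the 8 genes.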
